A study of Mus musculus with 24 samples.

Results

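The MITF/TFE3 DKO is a B16F10-luc2 mouse melanoma line that lacks MITF and TFE3, so that TFEB is the factor of this family left in it. Its 3 libraries were compared with the 3 libraries of the parental B16F10-luc2 cells over all 12010 genes of the expression table, and these 6 libraries were chosen by genotype label from the 24 libraries of 8 cell lines. B16-F10 is a pigmented melanoma line from a C57BL/6 mouse, and every line here carries a luciferase reporter and grew in the same serum-containing medium with no treatment. The genotypes set beside the DKO were the parental one, with all 3 factors, Mitf-KO (MITF KO), Tfe3-KO (TFE3 KO) and the triple KO of Mitf, Tfeb and Tfe3 (TKO), with 3 libraries each. The MITF KO is an earlier frameshift line in which the study saw a faint band that may be a truncated MITF protein, and TFE3 was inactivated in those cells with CRISPR-Cas9 to give the DKO. Each KO line was isolated as a clone, so that differences between clones cannot be told apart from the loss of the factors. The labels do not say whether the 3 libraries of a line came from separate cultures, and the p-values measure only the spread between these libraries.

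MITF, TFE3 and TFEB are related basic helix-loop-helix leucine zipper proteins that bind E-boxes with the core CACGTG as homodimers or as heterodimers with one another. MITF is best known for driving pigment and survival genes in melanocytes, and TFE3 and TFEB for driving lysosome and autophagy genes when the kinase complex mTORC1 is inactive and they enter the nucleus. Some melanoma cells express all 3, and in these each can compete for the same sites.

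The guide against Tfe3 in the series record matched the genome once, in coding exon 2 of 10 of the main Tfe3 transcript at chrX:7631803-7631825 (GRCm39, minus strand). It is shown as the only guide of the series record for this gene, and capitals mark the adjacent PAM that Cas9 needs. The methods of the study print another Tfe3 guide, which was not placed here, so that the guide that made the edit in the DKO is not known.
Tfe3 guide site: cgtagaagctgtcaggatcgAGG

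The targeted genes were read first. Tfe3 had 35.4, 38.4 and 37.4 CPM (CPM, read counts scaled to library size and between libraries by the TMM method) in parental libraries, against 8.01, 9.75 and 8.14 CPM in the DKO. The 2 lines did not overlap, and Tfe3 fell by 1.99 (log2; SE 0.16, limma adjusted p = 1.1e-09). Mitf, whose mutant transcript is still made, had 763, 768 and 797 CPM in the parental cells and 1101, 1208 and 1268 CPM in the DKO, above every parental library by 0.62 (log2; adjusted p = 1.9e-05), which is under the fold required for a call. Tfeb, the factor left, had 8.20, 7.87 and 10.3 CPM in the parental cells and 10.7, 13.6 and 9.55 CPM in the DKO, with overlapping libraries and a 95% interval of the difference from -0.05 to 0.69 (log2). The MITF KO had more Tfeb, at 15.5, 22.7 and 16.8 CPM, and the DKO lay below it by 0.65 (log2), short of a call. Tfeb lies in a stretch of chromosome 17 in which neighbouring genes are higher together in the DKO. The libraries hold only the 3′ ends of transcripts, away from the edits, so that these levels do not check the edited bases.

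The melanocyte identity of the cells was read from Sox10, the lineage factor, at 632, 792 and 635 CPM in the DKO and 708, 762 and 723 CPM in the parental cells, and from Pmel, Mlana, Tyr, Dct and Tyrp1, whose lowest values over the 6 libraries were 3502, 554, 81.6, 17027 and 2506 CPM. Reads on genes numbered between 22707913 and 23635288 in the parental cells and between 20574829 and 23265990 in the DKO. Among the DKO libraries 1 and 2 were farthest apart, with a chi-square per degree of freedom of 37.5, against 21.7 for 1 and 3 and 21.6 for 2 and 3, where the closest pair of the 2 lines gave 6.92. Of markers of other cell types, 3 of 16 leukocyte genes were in the table, with a summed level of 5.23 to 6.86 CPM in the DKO and 1.75 to 2.59 CPM in the parental cells, and Ptprc, Cd3e, Adgre1 and Itgam were not among the genes listed. Of the 12 fibroblast and mural cell genes 5 were in the table, at a summed 26.5 to 27.8 CPM against 13.9 to 16.4 CPM, and of 8 endothelial genes 3 were, at 43.7 to 59.5 CPM against 52.9 to 64.7 CPM; Col3a1, Dcn, Cdh5 and Kdr were not listed. Against the parental cells 2 of the 3 leukocyte genes and 3 of the 5 fibroblast and mural cell genes were called higher, and 2 of the 3 endothelial genes lower, and their part in the results below was not tested. Of 8 epithelial genes, 2 were in the table, at 1.55 to 2.08 CPM against 0.899 to 1.41 CPM. Among 11 housekeeping genes and 5 genes of nuclear RNA and heat shock none was called by limma, edgeR or DESeq2, and 4 and 3 of them had an unadjusted limma p under 0.05.

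The question of the main comparison is which genes change when MITF and TFE3 are both lost. A gene was called at a change of at least 2-fold and an unadjusted limma p under 0.05, the threshold of the study. In the DKO 420 genes were higher than in the parental cells (3.5% of the 12010 tested) and 285 were lower (2.37%), of which 416 and 285 also had an adjusted p under 0.05. With edgeR on recovered reads, the tool of the study, 817 were higher and 489 lower, with DESeq2 829 and 490, and with a pseudocount of 5 in place of 1 the limma counts were 159 and 149. In 699 of these 705 genes the DKO and parental libraries did not overlap, while over the whole table this held for 6032 genes (50.2%). At any fold change 5911 of the 12010 genes had an unadjusted limma p under 0.05, the count to set beside those of the lists below. Fold changes are on the log2(CPM + 1) scale, which shrinks the changes of genes with few reads.

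**Figure D1:**
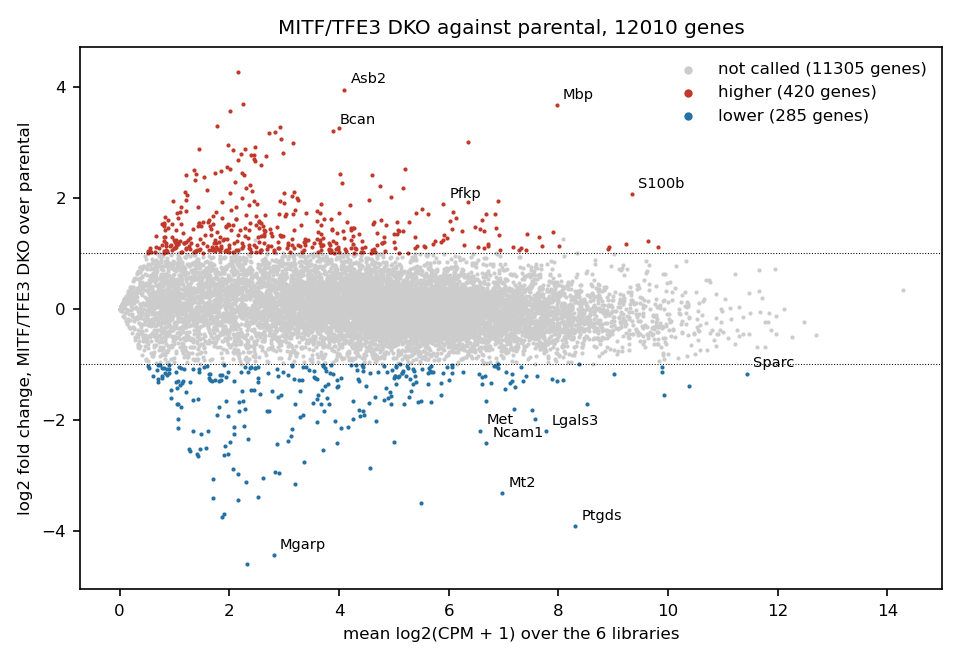
Log2 fold change of the MITF/TFE3 DKO over the parental cells (vertical axis) against the mean log2(CPM + 1) over the 6 libraries (horizontal axis), with 1 point per gene and dotted lines at a 2-fold change. The 420 genes called higher and 285 called lower lie outside the dotted lines, with Mbp at 3.67, S100b at 2.06, Sparc at -1.17 and Ptgds at -3.91 among the more abundant transcripts.

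The largest rises included genes of muscle, myelin and matrix. Mbp, which encodes myelin basic protein, had 66.9, 67.9 and 72.8 CPM in the parental cells and 965, 848 and 863 CPM in the DKO. The DKO libraries were all far above the parental ones, a log2 change of 3.67 ± 0.17 (SE), limma adjusted p = 2.1e-13. Asb2, a subunit of a ubiquitin ligase that acts on filamins, had 3.54, 2.82 and 3.78 CPM and then 66.2, 65.2 and 66.6 CPM (log2 3.94). Bcan, encoding the proteoglycan brevican, rose by 3.21 and Slit2, a secreted guidance cue, by 3.26. Hapln1, which links hyaluronan to proteoglycans, had 0.0863, 0.227 and 0 CPM in the parental cells and 9.76, 8.90 and 10.5 CPM in the DKO. Dbh, the enzyme that makes noradrenaline, had 0.604, 0 and 0 CPM and 11.4, 12.8 and 14.1 CPM, so that 2 parental libraries had no read of it. The rises of Abca8a, an ABC transporter gene, by 3.68, of Hspb7, a small heat shock protein gene of muscle, by 3.27, of Jph2, a junctophilin gene, by 3.17, of Ccdc80 by 3.06 and of Lhfpl4, which encodes a partner of inhibitory synaptic receptors, by 3.18 were of the same order. Zfp985, a zinc finger gene, had 17.6, 18.4 and 19.7 CPM in the DKO and at most 1 read in any parental library.

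Among the largest falls the most abundant transcript was Ptgds, the prostaglandin D2 synthase gene, with 1211, 1304 and 1182 CPM in the parental cells and 77.7, 91.3 and 74.2 CPM in the DKO. No library came near the other line, and the log2 change was -3.91 ± 0.13 (SE), limma adjusted p = 4.0e-16. Mgarp, encoding a protein that places mitochondria in the cell, fell by 4.44, Nckap5l, a gene of a microtubule-binding protein, by 3.50 and Gpr37, a receptor gene, by 3.45. Mt2, encoding a metal-binding metallothionein, had 381, 381 and 430.5 CPM in the parental cells and 46.01, 36.04 and 35.1 CPM in the DKO. Fscn1, the actin-bundling fascin gene, fell by 3.16, Slc4a4, a bicarbonate carrier gene, by 3.39 and Ngfr, the neurotrophin receptor of neural crest cells, by 3.11. 4 further genes were all but lost. Nr5a1, encoding a nuclear receptor of steroid-producing tissue, had 12.7, 14.5 and 10.5 CPM in the parental cells and no read in the DKO, and was at least 93.4-fold lower when 3 reads per library are taken as the floor. Nova1, encoding an RNA-binding protein, had 8.07, 11.8 and 9.26 CPM and then no read either and was at least 72.3-fold lower. Tuba4a, an alpha-tubulin gene, had 14.1, 12.4 and 11.1 CPM in the parental cells and at most 2 reads per DKO library, and had no read in any library of the MITF KO, the TFE3 KO or the TKO. 2210016F16Rik had 23.4, 27.3 and 20.9 CPM in the parental cells and at most 1 read per DKO library.

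**Figure D2:**
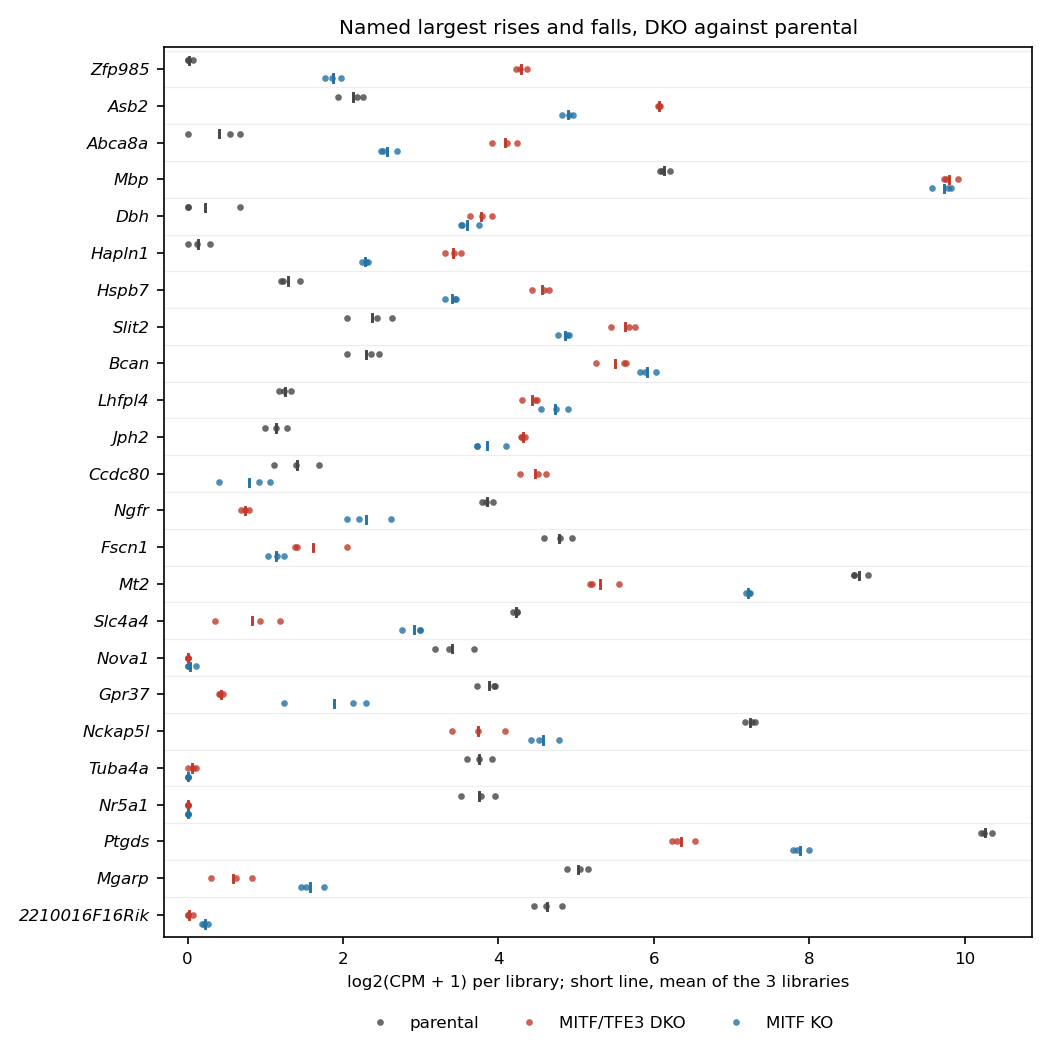
Values per library, as log2(CPM + 1) on the horizontal axis, of the 12 largest rises and 12 largest falls named by rule, in the parental cells, the MITF/TFE3 DKO and the MITF KO, with a short line at each mean of 3 libraries. The rule took only genes whose DKO and parental libraries do not overlap, so the gap between these points was fixed by it. Ccdc80 is high in the DKO alone of the 3 lines, and Mbp, Dbh and Nova1 lie close together in the DKO and the MITF KO.

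The DKO was made from the MITF KO, and both are set against the same parental libraries, so their values are given side by side. Mbp had 880.3, 762 and 907 CPM in the MITF KO, with a difference between DKO and MITF KO of 0.07 ± 0.17 (SE), limma adjusted p = 0.77 and a 95% interval from -0.28 to 0.43. Bcan had 55.6, 64.02 and 58.02 CPM in the MITF KO, and Nr5a1 had no read in its 3 libraries. Ptgds was lower in the DKO than in the MITF KO, which had 221, 255 and 228 CPM (log2 -1.52), and Slc4a4 was lower by 2.08. Ccdc80, at 1.08, 0.884 and 0.327 CPM in the MITF KO, was higher in the DKO by 3.67. In all, 407 genes were higher in the DKO than in the MITF KO (3.39%) and 201 lower (1.67%).

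Lysosome and autophagy genes are the classical targets of TFEB and TFE3. Of 47 lysosomal hydrolases and activators in the table, 4 were called higher and none lower by limma, with equal counts by edgeR and by DESeq2. That is 8.51%, against 3.5% higher over all genes. An unadjusted limma p under 0.05 was found for 23 of the 47, against 5911 of all 12010 genes. The median log2 change was 0.25, against 0.02 over all genes. The MITF KO likewise had 4 of the 47 higher than the parental cells and none lower, with a median of 0.28. Against the MITF KO the DKO had 1 higher and 1 lower, with a median of 0.02. Hgsnat, an enzyme of heparan sulphate breakdown, had 110.2, 114 and 97.9 CPM in the parental cells and 245, 321 and 259.8 CPM in the DKO, with no overlap (log2 1.34, adjusted p = 1.1e-09). Lipa, the lysosomal acid lipase, rose by 1.11, Idua, which cuts glycosaminoglycans, by 1.18 and Ctsf, a cathepsin protease gene, by 1.55. Hexa, a hexosaminidase subunit, differed by 0.40 and the proteases Ctsd and Ctsb by 0.14 and -0.28, none of them called. Hgsnat lies in a stretch of chromosome 8 in which neighbouring genes are higher together, as do Lamp1, Mcoln1 and Map1lc3b, and Ctsd in one of chromosome 7 in which they are lower together.

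Of 36 subunits of the proton pump V-ATPase and proteins of the lysosomal membrane, 1 was called higher by limma. That is 2.78%, against 3.5% higher over all genes. With edgeR and DESeq2 each 1 was higher and 1 lower. Sidt2, a lysosomal nucleic acid transporter, had 20.5, 17.96 and 18.8 CPM in the parental cells and 38.6, 42.5 and 39.3 CPM in the DKO, with no overlap, and rose by 1.03 (0.992 without DKO library 2 and 0.993 without parental library 2, each of which loses the call). Lamp1, the main lysosomal membrane glycoprotein, had 454, 451 and 408 CPM and 723, 813 and 739 CPM, higher in each DKO library but short of a call at 0.79 (log2; adjusted p = 5.9e-08), and Mcoln1, the lysosomal calcium channel, differed by 0.22. None of 43 autophagy genes was called by limma, edgeR or DESeq2, and their median was 0.17. Of these 43 genes 25 had an unadjusted limma p under 0.05, against 5911 of all 12010 genes. Map1lc3b, whose product coats autophagosomes, differed by 0.70 and Sqstm1, the cargo receptor p62, by -0.02. Of 47 hydrolase, 36 membrane and 43 autophagy genes, 7, 6 and 4 lay in stretches of neighbours that were higher together and 5, 2 and 4 in stretches that were lower together.

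The promoter letters of these genes were compared with those of all genes, since Ctsf holds the E-box core beside its start. It is printed from 120 bases before its start to 10 after it (chr19:4904998-4905127, GRCm39, plus strand), and capitals mark CACGTG.
Ctsf promoter: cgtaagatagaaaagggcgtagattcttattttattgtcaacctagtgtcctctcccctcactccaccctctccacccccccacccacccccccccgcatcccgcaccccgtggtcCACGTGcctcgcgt
Over 11707 genes with a position, 10.2% had CACGTG between 250 bases before and 50 after the start, which reads the same on both strands, and 1.75% had the longer TCACGTGA that contains it. Of the lysosomal hydrolase promoters, 11 of 46 (23.9%) had CACGTG, and of the V-ATPase and lysosomal membrane promoters 10 of 36 (27.8%). Of the genes called higher in the DKO than in the parental cells 31 of 411 (7.54%) had it, and of those called lower 24 of 275 (8.73%), neither above the share over all genes. TCATGTGA or its complement TCACATGA was in 1 of 411 and 1 of 275 of these promoters, against 0.897% over all genes. A match describes the letters in this window and does not show that a factor binds there.

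Pigment genes were called both ways. Of 28 pigment enzymes and melanosome proteins, 2 were called higher and 3 lower by limma, with equal counts by edgeR and by DESeq2, 17.9% against 5.87% called in either direction over all genes, with a median log2 change of -0.11. Tyr, the rate-limiting enzyme of melanin synthesis, had 127, 133 and 134 CPM in the parental cells and 107, 81.6 and 115 CPM in the DKO, lower in each DKO library by 0.39 (log2) but not called, and lies in a stretch of lower neighbours. Pmel, which forms the fibrils of the melanosome, had overlapping libraries and differed by -0.08, and Mlana differed by -0.42. The called members were Oca2, a melanosomal chloride transporter, which rose by 1.95, Slc24a4, a calcium exchanger gene, which rose by 1.08 (0.939 without DKO library 3 and 0.943 without parental library 1, each of which loses the call), Sytl2 and Cited1, which fell by 1.94 and 1.71, and Bace2, a protease that trims PMEL, which fell by 1.30. Against the TKO, which has lost TFEB as well, 17 of these 28 genes were higher in the DKO and none lower, where 690 of all genes were higher (5.75%) and 683 lower (5.69%). Tyr had 8.78, 7.66 and 8.60 CPM in the TKO and was higher in the DKO by 3.44 (adjusted p = 4.0e-15), and Pmel, at 527, 544 and 583 CPM in the TKO, by 2.69.

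Of 16 regulators of melanocytes and neural crest in the table, Id3, an inhibitor of helix-loop-helix proteins, was called higher and Ngfr lower. These calls are 12.5% of the list, against 5.87% called in either direction over all genes. Id3 had 7.51, 10.4 and 19.4 CPM in the parental cells and 72.04, 40.9 and 61.8 CPM in the DKO, a wide spread in both lines but without overlap (log2 2.20 ± 0.38 SE). Kit, the receptor of stem cell factor, had 0.777, 0.273 and 0.944 CPM in the parental cells and at most 2 reads in any DKO library.

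Genes of growth factor signalling were called mostly lower. Of 19 growth factor receptors and ligands 4 were lower and 1 higher (26.3%, against 5.87% called in either direction over all genes). Of 26 genes that respond to MAPK signalling 5 were lower and none higher by limma (19.2%, against 2.37% lower over all genes). With edgeR and DESeq2 each 7 of the 26 were lower and 0 higher. Of the 26, 19 had an unadjusted limma p under 0.05, against 5911 of all 12010 genes. The MITF KO had 4 of the 19 and 7 of the 26 lower than the parental cells and none higher. Against the MITF KO the DKO had 1 of the 19 lower and none higher, and 3 of the 26 higher and none lower. Met, the receptor of hepatocyte growth factor, had 212, 206 and 191 CPM in the parental cells and 34.3, 51.3 and 46.9 CPM in the DKO, with the 2 lines far apart (log2 -2.20 ± 0.14 (SE), limma adjusted p = 2.5e-11). Pdgfa, a platelet-derived growth factor chain, fell by 1.58, Epha4, an ephrin receptor, by 1.46 and Kitl, the ligand of KIT, by 1.23, while Ephb2 rose by 1.26. The 3 ETS factors that follow ERK activity were all lower. Etv4 had 7.90, 10.1 and 7.15 CPM in the parental cells and 0.498, 0.612 and 0.366 CPM in the DKO, and fell by 2.64. Etv5 fell by 2.44, Etv1 by 1.56, Maff by 1.05 (-0.74 without DKO library 2 and -0.853 without parental library 1, each of which loses the call) and Myc by 1.13 (-0.868 without DKO library 2, which loses the call). The ERK phosphatase gene Dusp6 had 116, 114 and 151 CPM and 109, 79.1 and 108 CPM, lower in every DKO library by 0.36 (log2) but not called. Of 16 WNT pathway genes limma called 1, Tcf7l1, a repressor of this pathway, which fell by 1.50, while edgeR and DESeq2 each called 1 higher and 4 lower. Of 23 MYC and E-box factors in the table Bhlhe41 fell by 1.24, Myc fell as above, and Mxd4, a MYC antagonist, rose by 1.18.

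Matrix and adhesion genes were called both ways, and contractile genes mostly higher. Of 44 matrix and adhesion genes 5 were called in each direction by limma, and 9 higher and 8 lower by edgeR and DESeq2 each. The limma calls made up 22.7% of the list, against 5.87% called in either direction over all genes. The MITF KO had 10 of the 44 higher than the parental cells and 3 lower. Against the MITF KO the DKO had 1 higher and 6 lower, with a median of -0.28. Ncam1, a neural cell adhesion molecule, had 237, 228 and 245 CPM in the parental cells and 34.8, 50.3 and 47.1 CPM in the DKO, the second far below the first (log2 -2.42 ± 0.10 (SE), limma adjusted p = 2.6e-14). Itgb3, an integrin subunit, fell by 2.03, Fbln1, a matrix glycoprotein gene, by 1.58, Lamb1, a laminin chain, by 1.29 and Sparc, a matrix-binding glycoprotein gene, by 1.17. Mmp15, a membrane-bound metalloprotease gene, rose by 2.54, Col4a2 by 1.68, Col1a1 by 1.11 (0.961 without parental library 3, which loses the call) and Postn by 1.05 (0.921 without parental library 3, which loses the call), although Col1a1 had only 1.91, 2.07 and 1.97 CPM and Postn 2.82, 3.06 and 2.93 CPM in the DKO. Of 31 contractile and cytoskeletal genes 5 were higher and Tuba4a was lower by limma (19.4%, against 5.87% called either way over all genes). With edgeR 9 and with DESeq2 10 were higher, and each called 1 lower. The MITF KO had 4 of the 31 higher than the parental cells and 2 lower. Against the MITF KO the DKO had 4 higher and 1 lower. Lmod1, a smooth muscle leiomodin gene, had 5.13, 7.32 and 5.71 CPM in the parental cells and 32.97, 40.6 and 35.97 CPM in the DKO. Actg2, the enteric smooth muscle actin, rose by 2.95, Cnn2, a calponin, by 1.59, Myl9, a myosin light chain, by 1.44 and Mylk, the myosin light chain kinase, by 1.17. Acta2 had no read in parental cells and 0.706, 0.754 and 1.37 CPM in the DKO, at least 7.06-fold higher. Of 33 TGF-beta, BMP and YAP response genes 4 rose and none fell by limma (12.1%, against 3.5% higher over all genes). With edgeR and DESeq2 each 5 were higher and 1 lower. Of the 33, 15 had an unadjusted limma p under 0.05, against 5911 of all 12010 genes. Among the limma calls Tgfb3 rose by 1.95 and Ccn1 by 1.13 (0.997 without parental library 3, which loses the call). Ccn2, the other usual YAP target, had overlapping libraries.

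Of 18 galectins, S100 proteins and annexins 4 were higher and 1 lower (27.8%, against 5.87% called in either direction over all genes). S100b, the calcium-binding marker of glia and melanocytes, had 316, 338 and 295 CPM in the parental cells and 1292, 1476 and 1199 CPM in the DKO, well apart, and rose by 2.06. S100a16 rose by 2.01 and S100a4 by 1.24. Lgals3, encoding galectin-3, had 466, 475 and 462 CPM and 99.8, 109 and 92.4 CPM, and fell by 2.21 (adjusted p = 3.7e-13).

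Of 39 glycolysis and hypoxia genes 3 were lower and 2 higher (12.8%, against 5.87% called either way over all genes). Slc16a3, the lactate exporter MCT4, had 99.8, 100.3 and 95.9 CPM in the parental cells and 31.1, 35.9 and 32.1 CPM in the DKO (log2 -1.55), Eno2 fell by 1.32 and Hk2, a hexokinase, by 1.22, while the phosphofructokinase gene Pfkp rose by 1.89. Ldha was lower in each DKO library and short of a call at -0.91. Of 37 sterol and fatty acid synthesis genes Scd1, the stearoyl-CoA desaturase, fell by 1.71, Me1, the malic enzyme, fell by 1.29 and Lpin1, a phosphatidate phosphatase, rose by 1.40 (8.11% of the list). Of 31 genes of fatty acid uptake and oxidation Slc27a6 and Ppara fell, by 1.93 and 1.02 (-0.936 without DKO library 1 and -0.891 without parental library 3, each of which loses the call), and Cpt1c rose by 1.16, 9.68% of the list. In the respiratory chain list, 1 of 57 genes was called, Cox7b, at 1.08, with a list median of 0.31, and Ppargc1a, the coactivator of mitochondrial genes, had 152, 149 and 128 CPM and 169, 189.9 and 220.4 CPM with no call.

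Of 37 genes of mTORC1 recruitment and inhibition 3 rose and none fell by limma (8.11%, against 3.5% higher over all genes). With edgeR and DESeq2 each 4 were higher and 0 lower. An unadjusted limma p under 0.05 was found for 18 of the 37, against 5911 of all 12010 genes. Ddit4, the mTORC1 inhibitor REDD1, had 63.03, 57.4 and 46.8 CPM in the parental cells and 171, 204 and 177 CPM in the DKO (log2 1.71), its relative Ddit4l rose by 2.65 and the sestrin gene Sesn1 by 1.02 (0.924 without DKO library 1, 0.823 without parental library 1 and 0.926 without parental library 2, each of which loses the call), while Sesn2 had overlapping libraries. Of 34 ATF4 and amino acid response genes Atf5, Nupr1 and Gdf15 rose, by 1.06 (0.996 without parental library 3, which loses the call), 1.21 and 1.48, which is 8.82% of the list. The MITF KO had 6 of the 34 higher than the parental cells and none lower, with a list median of 0.47 against 0.27 in the DKO. Against the MITF KO the DKO had no call in this list and a median of -0.25. Relative to the parental cells Atf4 itself differed by -0.35 and the asparagine synthetase gene Asns by 0.28. Pdia4, a protein disulphide isomerase of the endoplasmic reticulum, fell by 1.26, the single limma call among 29 chaperone genes, of which edgeR and DESeq2 each called 2 lower.

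Proliferation genes had medians below that of all genes in the DKO and in the MITF KO. Of 45 S phase and replication genes 4 were called lower and none higher by limma, with equal counts by edgeR and by DESeq2. That is 8.89%, against 2.37% lower over all genes. An unadjusted limma p under 0.05 was found for 30 of the 45, against 5911 of all 12010 genes, and the median was -0.40. Of 41 genes of mitosis and G2/M 1 was lower (2.44%), with a median of -0.32. In the MITF KO these medians against the parental cells were -0.35 and -0.33. Against the MITF KO the DKO medians were -0.07 and -0.04, with 1 S phase gene higher and 1 mitosis gene lower. Mcm10, which loads the replication machinery, had 79.5, 82.9 and 75.2 CPM in the parental cells and 21.8, 24.6 and 26.8 CPM in the DKO. Mcm7, a helicase subunit, fell by 1.31 and Lig1, the replicative ligase, by 1.15. Mki67, the proliferation marker, had 258, 254 and 259.9 CPM and 75.4, 110.4 and 133 CPM, and fell by 1.31. Mcm7, Lig1 and Mki67 lie in stretches of chromosomes 5 and 7 where neighbouring genes are lower together. Of 25 G1 cyclins and CDK inhibitors the p53-responsive Ccng1 and Btg2 and the growth arrest gene Gadd45g rose, by 1.44, 1.55 and 1.28. These calls are 12% of that list, against 3.5% higher over all genes, and Cdkn1a, encoding p21, differed by 0.62. Of 19 BCL2 family and survival genes none was called by limma, although 12 had an unadjusted p under 0.05, while edgeR and DESeq2 each called 4 higher and 1 lower, and Bcl2 differed by -0.87. Of 73 cytosolic ribosomal protein genes limma called only Rpl15, and edgeR and DESeq2 each called 1 higher. Rpl15 had 12.7, 11.3 and 28.6 CPM in the parental cells and 81.05, 26.3 and 51.3 CPM in the DKO, with a log2 change of 1.52 (1.14 without DKO library 1 and 1.28 without parental library 2, each of which loses the call), and this gene has processed copies in the genome that can share its reads. The glutathione S-transferase genes Gsta4 and Gsta2 fell by 1.32 and 1.31, among 3 calls in 35 glutathione and NRF2 target genes. The 3 calls are 8.57% of that list, against 5.87% called in either direction over all genes.

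**Figure D3:**
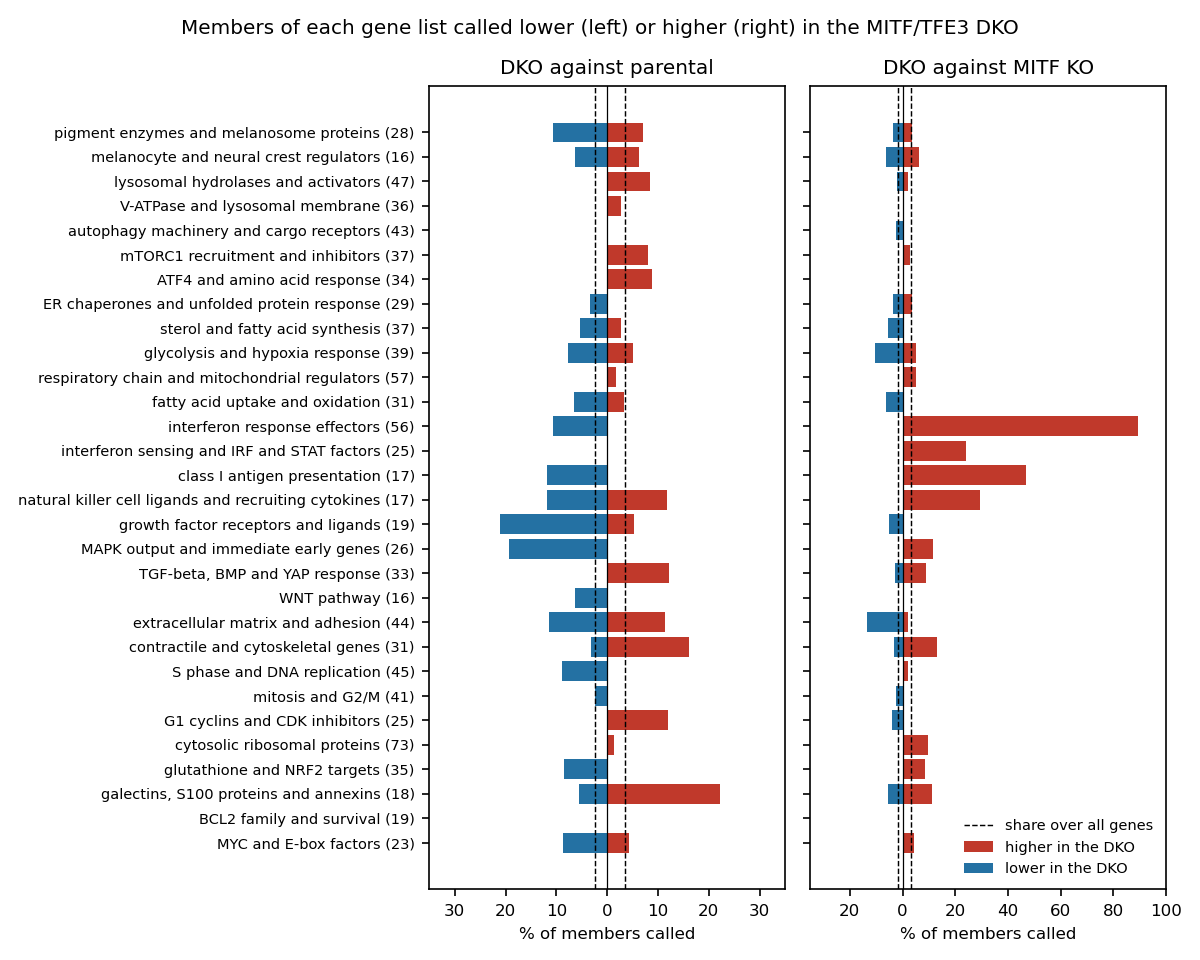
Percent of the members of each gene list that were called higher (right) or lower (left) in the MITF/TFE3 DKO, against the parental cells in the left panel and against the MITF KO in the right panel, with the number of members in the table in brackets and dashed lines at the share over all genes. Against the parental cells the interferon response effectors are called lower in 6 of 56 cases and higher in none, and against the MITF KO the interferon response effectors reach 89.3%.

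The interferon response separated the DKO from the MITF KO from which it was made. Interferon-stimulated genes are switched on by factors that interferon receptors activate, and their products block viral RNA and protein synthesis. Of 60 such effectors listed 56 were in the table, and 50 of them were higher in the DKO than in the MITF KO and none lower, against 3.39% and 1.67% of all genes. Their median log2 difference was 3.83, or 4.16 when the 10 genes with at most 3 reads in every MITF KO library are set to the bound that this floor gives. Against the parental cells 6 of the 56 were lower in the DKO (10.7%, against 2.37% lower over all genes) and none higher, with a median of -0.18. All DKO libraries lay below all parental ones in 27 of the 56 and above them in 7. Over all 12010 genes this held for 3062 and 2970. The 2 lines overlapped in 22 of the 56 and in 5978 of all genes. An unadjusted limma p under 0.05 was found for 31 of the 56 and for 5911 of all genes. The summed level of the 56 genes was 10997 to 11346 CPM in the parental cells, 9408 to 10295 CPM in the DKO, 556 to 582 CPM in the MITF KO, 6352 to 7395 CPM in the TFE3 KO and 1294 to 1395 CPM in the TKO.

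Promoters of 3 of these genes are printed from 130 bases before the start to the base before it, because such letters are common in this group. Capitals mark matches to GAAANNGAA or its complement TTCNNTTTC, the core of the interferon-stimulated response element. Overlapping matches are joined. Isg15 lies at chr4:156285304-156285433 (GRCm39, minus strand), Usp18 at chr6:121222727-121222856 (plus strand) and Ifit1 at chr19:34618141-34618270 (plus strand).
Isg15 promoter: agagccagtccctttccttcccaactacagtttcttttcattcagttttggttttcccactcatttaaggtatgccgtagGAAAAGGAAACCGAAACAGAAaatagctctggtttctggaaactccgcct
Usp18 promoter: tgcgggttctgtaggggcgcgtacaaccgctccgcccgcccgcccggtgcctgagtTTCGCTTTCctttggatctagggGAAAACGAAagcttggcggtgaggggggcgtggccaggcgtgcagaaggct
Ifit1 promoter: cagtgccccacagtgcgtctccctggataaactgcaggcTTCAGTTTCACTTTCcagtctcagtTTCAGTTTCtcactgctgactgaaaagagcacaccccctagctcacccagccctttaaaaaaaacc
In the window from 250 bases before to 50 after the start, 30 of 55 interferon response effectors (54.5%) had a match, against 7.76% of all genes. Among all genes called higher in the DKO than in the MITF KO 75 of 394 (19.04%) had one. The interferon response effectors called higher are among these genes, so this share is not a separate observation. Among genes called higher than in the parental cells it was 5.35%. These letters were chosen after the values of the group had been seen. With CACGTG, 2 of 55 of the effectors matched (3.64%).

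Usp18, which removes ISG15 from proteins and dampens the receptor, had 187, 186 and 184 CPM in the parental cells and 193, 230.3 and 179 CPM in the DKO. The 2 lines overlapped, with a 95% interval of the difference from -0.14 to 0.36 (log2). The MITF KO had 0.471, 0.602 and 0.981 CPM, so that the DKO was higher by 6.91 ± 0.12 (SE), limma adjusted p = 1.3e-22. The TFE3 KO had 102, 78.9 and 69.6 CPM and the TKO 2.33, 1.997 and 2.28 CPM.

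Isg15 itself, a ubiquitin-like modifier, had 528, 553 and 804 CPM in the parental cells, 849.8, 504 and 649.7 CPM in the DKO and 6.07, 5.10 and 4.74 CPM in the MITF KO. The parental and DKO libraries overlapped, and both lines lay far above the MITF KO (log2 6.70 for the DKO). Ifit1, which holds back viral RNA, had 432, 403 and 393 CPM in the DKO, 379.8, 358 and 439.8 CPM in the parental cells and 6.12, 6.43 and 8.34 CPM in the MITF KO. Rsad2, encoding the antiviral enzyme viperin, was higher in the DKO than in the MITF KO by 5.76 and Ifit3, which shares most of its sequence with Ifit3b so that reads may be split between them, by 6.16. Oas2, a sensor of double-stranded RNA, had 28.9, 44.99 and 40.3 CPM in the DKO and no read in 2 MITF KO libraries with 2 reads in the other. Iigp1, an interferon-inducible GTPase, had 94.9, 88.99 and 101 CPM in the parental cells and 110.1, 120.1 and 119.8 CPM in the DKO, against 0.188, 0 and 0 CPM in the MITF KO. Ifit2 was an exception, with 16.5, 16.02 and 19.6 CPM in the DKO and 18.3, 20.2 and 15.4 CPM in the MITF KO and no call in this comparison.

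The 6 effectors that were lower in the DKO than in the parental cells were Ifi47 by 1.92, Apol9b by 1.81, Apol9a by 1.44, Parp12 by 1.18, Oasl2 by 1.03 (-0.914 without DKO library 1, which loses the call) and Oasl1 by 1.02 (-0.995 without DKO library 1, -0.908 without DKO library 3 and -0.995 without parental library 3, each of which loses the call). Apol9b had 268, 291 and 256 CPM in the parental cells, 75.9, 89.8 and 66.7 CPM in the DKO and 0, 0.482 and 0.163 CPM in the MITF KO, so that the DKO lay between them. Apol9a and Apol9b are near-identical copies, and their reads may be split between them.

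**Figure D4:**
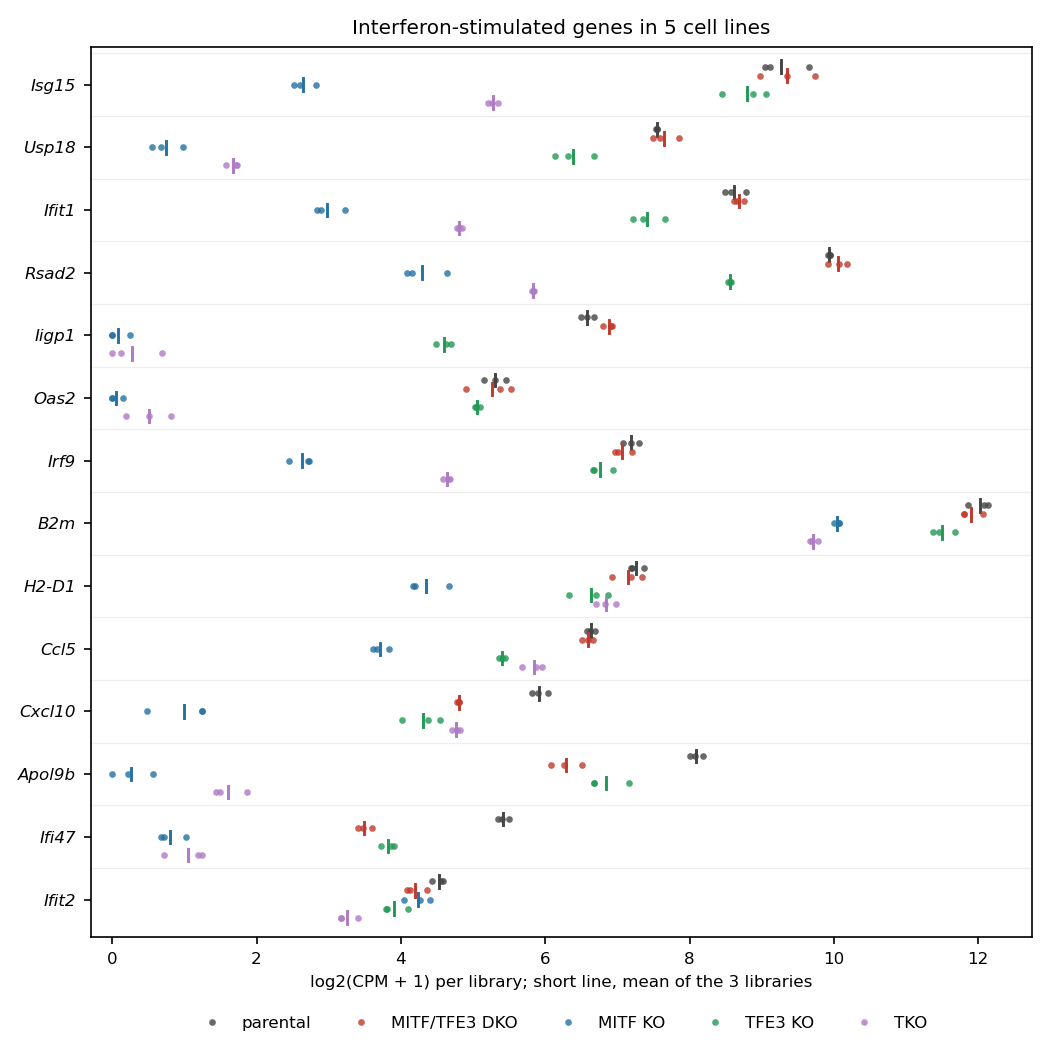
Values per library, as log2(CPM + 1) on the horizontal axis, of 14 interferon-stimulated and antigen presentation genes in 5 cell lines, with a short line at each mean of 3 libraries. The MITF KO has the lowest mean in all but B2m and Ifit2, where the TKO has, and the DKO lies near the parental cells in all but Cxcl10, Apol9b and Ifi47, where it is lower.

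Some of the genes that sense infection or switch on this response were higher too. Of 25 interferon sensing genes and IRF and STAT factors, 6 were higher in the DKO than in the MITF KO and none lower. That is 24%, against 3.39% higher over all genes. None was called against the parental cells by limma, edgeR or DESeq2. Against those cells 13 of the 25 had an unadjusted limma p under 0.05, where 5911 of all 12010 genes had one. Irf9, a DNA-binding subunit of the complex that reads this element, had 134, 157 and 144 CPM in the parental cells, 128, 146 and 124 CPM in the DKO and 5.60, 5.54 and 4.47 CPM in the MITF KO. The MITF KO lay far below both other lines, and the DKO differed from it by 4.43 ± 0.11 (SE), limma adjusted p = 2.0e-19. Stat2, another subunit, differed by 2.40, Tlr3, a sensor of double-stranded RNA, by 1.44 and Irf1 by 1.01 (0.967 without MITF KO library 2 and 0.927 without DKO library 2, each of which loses the call). Irf7, the factor that amplifies interferon production, had 1.12, 1.27 and 1.65 CPM in the DKO against no read in the MITF KO, at least 9.50-fold higher. Ifnar1 and Ifnar2, the type I interferon receptor chains, differed between DKO and MITF KO by 0.24 and 0.20 and Jak1, their kinase, by -0.37, with no call.

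Parts of antigen presentation and of the chemokine list were also higher than in the MITF KO. Of 17 class I presentation genes in the table, 8 were higher in the DKO than in the MITF KO and none lower. That is 47.1%, against 3.39% higher over all genes. Against the parental cells 2 were lower by limma (11.8%, against 2.37% lower over all genes) and 3 by edgeR and DESeq2. B2m, the light chain of class I molecules, had 4335, 4507 and 3702 CPM in the parental cells, 3586, 4287 and 3576 CPM in the DKO and 1075, 1072 and 1019.6 CPM in the MITF KO, with overlap between the first and second lines. H2-D1, a heavy chain whose reads can be shared with related genes, was higher in the DKO than in the MITF KO by 2.81, and Tap1, the peptide transporter, fell by 1.18 against the parental cells and was higher than in the MITF KO by 3.18. H2-K1 had 1.51, 1.14 and 0.719 CPM in the parental cells and no read in the DKO, the MITF KO, the TFE3 KO or the TKO, and its call against the parental cells is lost without parental library 1, as is its call above additivity. Of 17 genes of natural killer cell ligands and recruiting cytokines 5 were higher than in the MITF KO and none lower. That is 29.4%, against 3.39% higher over all genes. Ccl5, a T cell and natural killer cell chemokine, had 94.7, 102 and 96.95 CPM in the parental cells, 95.1, 100.4 and 90.5 CPM in the DKO and 13.3, 11.8 and 11.3 CPM in the MITF KO. Cxcl10 had 27.03, 27.04 and 26.6 CPM in the DKO, between 55.2, 58.5 and 64.7 CPM in the parental cells and 1.37, 0.402 and 1.36 CPM in the MITF KO. Nectin2, a ligand of natural killer cell receptors, fell against the parental cells by 1.66 and did not differ by a call from the MITF KO (-0.08), while Il18 rose by 1.57 and the death receptor gene Tnfrsf10b by 1.07.

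Whether the second loss adds to the first was tested as an interaction, the change on loss of TFE3 in cells without MITF minus the change in cells with MITF. Above additivity were 492 genes (4.1%) and below it 252 (2.1%). The interferon response effectors were above it in 52 of 56 cases and class I presentation genes in 12 of 17. The latter include H2-K1, which had no read in the DKO, the MITF KO or the TFE3 KO, so that its value only repeats its parental level. For Usp18 the TFE3 loss raised the level in cells without MITF by 6.91, and in cells with MITF the TFE3 KO lay -1.16 from the parental cells, a difference between the 2 effects of 8.07 ± 0.17 (SE), limma adjusted p = 1.0e-20. Clu, encoding the secreted chaperone clusterin, was 3.85 above additivity and Mbp 3.33. Mbp had 5.98, 7.83 and 5.37 CPM in the TFE3 KO, under every parental library. Ncam1 was 2.24 below additivity, Mt2 2.83 and Scd1 2.11. The MITF KO, TFE3 KO, DKO and parental libraries all enter this contrast, and the clones cannot be told apart from the losses.

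Against the TFE3 KO, the loss of MITF on top of that of TFE3, 646 genes were higher in the DKO (5.38%) and 315 lower (2.62%). Mbp was higher by 6.93 and S100b by 2.38, and Met was lower by 2.68, Etv5 by 2.43 and Ncam1 by 2.80. Tfe3 itself did not differ by a call between these lines (-0.28). Against the TKO, which differs in TFEB, the interferon response effectors were higher in the DKO in 47 of 56 cases and lower in none, contractile genes were higher in 3 of 31 and lower in 15, and matrix and adhesion genes were higher in 1 of 44 and lower in 21. Fn1, encoding fibronectin, had 9.92, 16.2 and 17.9 CPM in the DKO and 273, 292 and 295 CPM in the TKO. Of 34 ATF4 and amino acid response genes, 14 were higher in the DKO than in the TKO and none lower. Over all genes 5.75% were higher in the DKO than in the TKO and 5.69% lower.

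Some genes set the DKO apart from all 4 of these lines. 36 genes were higher in the DKO than in the parental cells, the MITF KO, the TFE3 KO and the TKO alike, and 20 were lower than in all 4. Clu had 77.5, 102 and 83.8 CPM in the DKO, against 26.6, 31.2 and 21.7 CPM in the parental cells and 16.5, 14.5 and 17.4 CPM in the MITF KO, with 10.6, 8.44 and 7.47 CPM in the TFE3 KO and 26.8, 27.2 and 23.05 CPM in the TKO. Actg2 had 9.88, 10.9 and 8.91 CPM in the DKO, 0.216, 0.546 and 0.494 CPM in the parental cells and 0.188, 0 and 0.436 CPM in the MITF KO. Cdsn, a desmosome protein gene, Tmem54, Ptpn7, a phosphatase gene, and Ddit4l were the other genes with the largest such rises, at 2.79, 2.08, 2.68 and 2.65 over the parental cells. Shroom4, an actin-binding protein gene, had 0.415, 1.79 and 1.14 CPM in the DKO and 7.53, 6.23 and 8.28 CPM in the MITF KO. Ncam1 had 34.8, 50.3 and 47.1 CPM in the DKO and 214, 234 and 237 CPM in the TKO, Steap2, a metal reductase gene, fell by 2.15 against the parental cells, Trib2, a pseudokinase gene, by 2.98 and Scn1a, a sodium channel gene, by 2.26.

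Neighbouring genes shifted together along several chromosomes. Over 9342 genes with a position and a mean of at least 5 CPM, the median change of 100 genes in a row was offset by 0.3 (log2) or more from the overall median in stretches holding 1845 genes (19.8%). The stretches were higher on chromosomes 8, 10 and 17, with 461, 148 and 143 genes, and lower on chromosomes 7, 5 and 19, with 589, 384 and 120 genes. The median over chromosome 7 was -0.32 in the DKO and -0.09 in the MITF KO, each relative to parental cells, and over chromosome 8 it was 0.29 and 0.14. The TKO and TFE3 KO had shifts of their own against the parental cells. In the TKO the median was 0.51 over chromosome 1 and -0.58 over chromosome 19, where the DKO had 0.19 and -0.09. In the TFE3 KO it was -0.32 over chromosome 16. Of the 438 called genes among the 9342, 94 (21.5%) lay in such stretches, near the share over all genes, and 28 of the genes called higher lay in higher stretches and 39 of those called lower in lower ones. Of the interferon response effectors 3 lay in higher and 6 in lower stretches. The part of these shifts in the values of single genes was not tested.

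**Figure D5:**
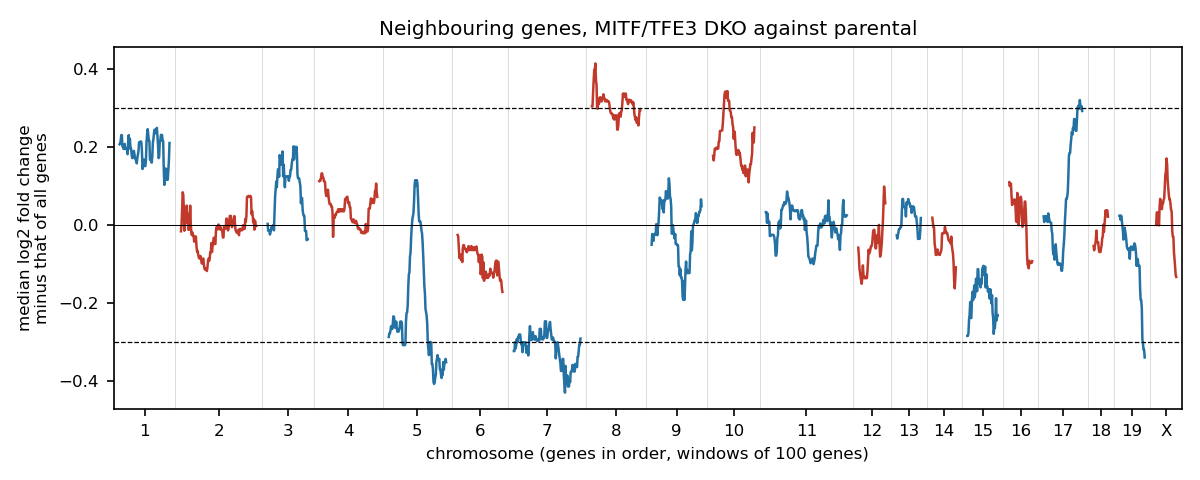
Median log2 fold change of the MITF/TFE3 DKO over the parental cells in windows of 100 neighbouring genes, minus the median of all genes (vertical axis), with genes in order along each chromosome (horizontal axis) and dashed lines at 0.3 on either side of 0. Chromosomes 8, 10 and the end of 17 reach above the upper line and chromosomes 5, 7 and the end of 19 below the lower one.

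Of 23 genes that the study itself names from these cells 4 were lower in the DKO and none higher, namely Ngfr, Met, Scd1 and Hk2, and since the list was drawn from these libraries it is not independent evidence of a direction. Axl, a receptor tyrosine kinase of dedifferentiated melanoma, had 32.5, 38.8 and 27.2 CPM and 21.2, 23.4 and 21.6 CPM, and Nampt, an enzyme of NAD synthesis, 117, 120.2 and 117 CPM and 83.5, 75.7 and 79.2 CPM. Both were lower in every DKO library and short of a call.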

How the data were processed

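RNA was measured by 3′ end sequencing (QuantSeq) of 24 libraries of 8 B16F10-luc2 lines, 3 per line. Per the study's methods and the submitters' processing notes, reads were trimmed with Trim Galore 0.6.5 and cutadapt 2.10, aligned to mm39 with STAR 2.7.8a and normalised with edgeR; the counter, its strand setting, the annotation and the gene filter are not given in the sources used here. The authors deposited a table of normalised signal, CPM scaled by TMM factors, for 12010 genes. Values were whole multiples of 1 read in 99.99% of cases (within 0.05 read), so reads were recovered. The median parental library held 23166822 reads and the median DKO library 21088208, and counts under about 3 reads carry little information.

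log2(CPM + 1) was fitted with limma 3.58.1 (trended variance) over all 24 libraries with the line as the only term, leaving 16 residual degrees of freedom, and p-values were adjusted by Benjamini-Hochberg over all 12010 genes. Groups were taken from the genotype labels. Alternatives were edgeR 4.0.16 and DESeq2 1.42.0 on the recovered reads, other pseudocounts, scalings and filters, a replicate block and leaving out each library; the closing section gives their effect. On simulated counts limma recovered 99.5% of 200 changed genes for the DKO against parental comparison and 98.5% for the interaction, and called 0% of unchanged genes. The changed genes had a mean of at least 5 CPM and changes beyond the 2-fold threshold, and all genes shared the same spread. These rates follow from that setting and do not carry over to smaller changes or to genes with few reads. Promoters were read from GRCm39 with GENCODE starts for 11707 genes. The members and gene lists were chosen with earlier results of these data known. Named genes were the targeted genes, the 12 largest rises and falls, anchors and up to 4 called members of each list, up to 6 genes each way apart from 4 lines, and genes the study names; 20 others (such as Ifit2, Rsad2, Sparc and Jak1) were named after their values were seen. The 12 largest rises and falls were drawn from called genes with an adjusted p under 0.05 whose DKO and parental libraries did not overlap. Reads of overlapping or antisense partners cannot be told apart, which touches Ctsd, S100a4 and Ifi47. Other lines of the series (TFEB KO, MITF/TFEB DKO and TFEB/TFE3 DKO) entered only the estimate of the spread. Values of 1 gene are not reported here.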

Additional observations from a re-analysis of the deposited data

Results flagged for a closer look

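The change on loss of TFE3 differed between cells without MITF and cells with MITF in 61 of the genes named, by the interaction term of limma at a difference of at least 2-fold and an adjusted p under 0.05. Each value is that difference on the log2(CPM + 1) scale. A positive value means a rise on TFE3 loss in cells without MITF, a fall in cells with MITF, or both. For Mbp it came from the fall in cells with MITF. Among interferon response effectors it was Iigp1 8.78, Usp18 8.07, Ifit3 7.89, Ifit3b 7.79, Apol9b 7.27, Isg15 7.18, Rsad2 7.14, Ifit1 6.90, Parp12 4.33 and Ifi47 4.28. Among sensors, factors, presentation genes and chemokines it was Cxcl10 5.42, Irf9 4.86, Ccl5 4.11, Tap1 3.95, H2-D1 3.43, Stat2 3.25, B2m 2.37, Tlr3 2.08 and Irf1 1.66. Among contractile and matrix genes it was Actg2 3.50, Myl9 2.86, Ncam1 -2.24, Postn -2.13, Mmp15 1.56, Lmod1 1.48, Cnn2 1.41, Fn1 -1.19 and Lamb1 -1.03. Other genes above additivity were Ccdc80 4.21, Clu 3.85, Id3 3.63, Cdsn 3.41, Mbp 3.33, Fscn1 2.95, Tmem54 2.87, Oca2 2.65, Hspb7 2.15, Ptpn7 2.06, Dusp6 1.71, Axl 1.69, Gadd45g 1.43, Mxd4 1.28, Cdkn1a 1.22, Nampt 1.20, Slit2 1.12 and Ephb2 1.12. Other genes below additivity were Mt2 -2.83, Trib2 -2.47, Scd1 -2.11, Slc4a4 -2.09, Scn1a -2.06, Shroom4 -2.01, Gpr37 -1.78, Gsta4 -1.60, Gsta2 -1.47, Met -1.18, Steap2 -1.17, Ngfr -1.14, Bace2 -1.10, Mki67 -1.06 and Nckap5l -1.05. 7 of these calls are lost when 1 library is left out. Ephb2 was 0.984 without TFE3 KO library 1. Fn1 was -0.944 without DKO library 1. Lamb1 was -0.938 without MITF KO library 1, -0.812 without DKO library 1, -0.941 without TFE3 KO library 3 and -0.987 without parental library 3. Mki67 was -0.837 without DKO library 1 and -0.906 without TFE3 KO library 3. Nckap5l was -0.951 without MITF KO library 2, -0.882 without DKO library 1 and -0.917 without TFE3 KO library 1. Ngfr was -0.98 without MITF KO library 2. Slit2 was 0.991 without parental library 3. The clones cannot be told apart from the losses, and no explanation was tested.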

How the results depend on the processing

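With edgeR and DESeq2 on recovered reads, 817 and 829 genes were higher and 489 and 490 lower than in the parental cells, 688 and 689 higher and 388 and 393 lower than in the MITF KO, and 1062 and 1070 higher and 502 and 511 lower than in the TFE3 KO, and DESeq2 placed 397 below additivity. A pseudocount of 5 gave 159 and 149 against the parental cells, 202 and 60 against the MITF KO, 261 and 148 against the TFE3 KO, 359 and 367 against the TKO, and 248 above and 91 below additivity. A pseudocount of 0.25 gave 711 and 446 against the parental cells, 329 lower than in the MITF KO and 386 below additivity. With a mean of at least 5 CPM 245 genes were higher than in the parental cells, 133 lower than in the MITF KO, 398 higher and 204 lower than in the TFE3 KO, and 312 above and 152 below additivity. Fewer genes are tested under that filter, pseudocounts act on genes with few reads by construction, and otherwise the cause was not tested. Leaving out 1 library gave 400 to 496 higher and 285 to 329 lower than parental, 328 to 550 and 183 to 232 for the MITF KO, 635 to 678 and 301 to 354 for the TFE3 KO, 690 to 713 and 661 to 717 for the TKO, and 481 to 534 above and 231 to 281 below additivity.

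The deviations of same-numbered DKO and parental libraries had correlations of -0.43, 0.40 and 0.17, and 2 DKO libraries correlated best with the parental library of their number. So few values cannot show whether the numbers pair the libraries. With a replicate block 422 genes were higher and 285 lower than parental, with 407 and 201 for the MITF KO. The block gave 646 and 315 for the TFE3 KO, 690 and 683 for the TKO, and 492 and 252 for the interaction. No result changed direction while called under the alternatives run, and 398 of 498 results of named genes kept their side of the threshold under all of them. Genes with a few reads per library limit every count, since a 2-fold change in them is close to the counting error.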
